A study of Mus musculus with 2 samples.

Results

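Umod-positive thick ascending limb cells are the cells of the loop of Henle that carry both Slc12a1, the sodium-potassium-chloride cotransporter NKCC2 blocked by loop diuretics, and Umod, which encodes uromodulin, the protein these cells secrete into the urine. They were taken from single-cell RNA-seq of newborn mouse kidney (postnatal day 0) and chosen on measured values. A barcode was a member if Slc12a1 gave at least 5 and Umod at least 3 of every 10,000 of its unique molecular identifiers (UMIs, 1 per captured transcript), among barcodes that had 1000 UMIs or more, 500 genes or more and no more than 20% of UMIs from mitochondrial genes. The rule found 263 cells of 9227, 96 of 4187 in the library labelled Flcn WT and 167 of 5040 in the library labelled Flcn KO.

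Both libraries carry Six2Cre, a recombinase under the Six2 promoter. Progenitors of the nephron express it and all nephron segments descend from them, whereas collecting duct, stroma and endothelium do not. The library labelled WT is heterozygous for a floxed Flcn allele (Six2Cre; Flcn flox/+), so it too has the recombinase and a single floxed copy. The library labelled KO is homozygous (Six2Cre; Flcn flox/flox). Each group has 1 library of tissue labelled embryonic kidney from neonatal animals, and the number of animals behind it is not given in the sources used here. No difference below therefore has a replicate check, no test was made, and every interval is a 95% interval that covers counting error only. The values compare these 2 libraries.

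The thick ascending limb reabsorbs salt without water. NKCC2 brings sodium, potassium and chloride in from the urine, the potassium channel ROMK (Kcnj1) returns potassium, chloride leaves on the blood side with the help of barttin (Bsnd), and claudins between the cells let sodium, calcium and magnesium pass. Folliculin, the product of Flcn, works at the lysosome with FNIP1 or FNIP2 as the activator of the RagC and RagD GTPases, through which mTORC1 keeps the transcription factors TFEB and TFE3 out of the nucleus. Free TFEB and TFE3 bind E-boxes and raise genes of lysosomes, the vacuolar proton pump and the folliculin pathway itself.

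Members were deeply sequenced, with a median of 44373.5 UMIs per cell in WT and 55839 in KO, and together gave 6237333 and 10486454 UMIs. 3 WT and 4 KO members had under 5000 UMIs. Mitochondrial UMIs had a median of 6.98% in WT and 7.60% in KO members. The libraries shared 5 barcode sequences, none of them that of a member. A UMI of Xist was found in 91 of 96 WT and 164 of 167 KO members, and a Y-linked gene in 1 WT member.

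The label was checked on the pair of markers that the rule did not use. Kcnj1 had a UMI in 95.8% of WT and 96.4% of KO members (after thinning each cell to 5000 UMIs, 76.3% and 84.0%). Endothelial cells, used as the background of free RNA, had shares of 0.896% and 2.24% (thinned 0.312% and 0.792%) at median depths of 23893 and 25779 UMIs. Cldn16, the magnesium and calcium pore of the cortical part of the limb, had a UMI in 64.6% of WT and 47.9% of KO members (thinned 28.0% and 19.0%), against 0.597% and 0.187% in endothelium (thinned 0 of 321 and 0 of 505 cells, which allows up to 0.935% and 0.594%). Both markers stood far above that background, and Cldn16 marked fewer members than Kcnj1.

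Proximal tubule, podocyte and endothelial marker lists were low in nearly all members. The summed proximal tubule list had a median of 0.236 UMIs per 10,000 in WT and 0.253 in KO, with 1 WT and 3 KO members at 10 or more, and a highest cell of 41.2 and 28.9. All 8 podocyte and all 8 endothelial markers were detected somewhere, at medians of 0.0703 and 0 for podocyte and 0.158 and 0.133 for endothelial genes, with single KO cells reaching 60.7 and 23.2. Of the distal convoluted tubule markers 7 of 8 were detected, Pvalb being at 0 in both libraries, at medians of 1.62 and 2.0. Over all barcodes that passed the cell limits those medians were 1.68 in WT and 2.12 in KO. The collecting duct and ureteric bud list had medians of 1.22 and 0.592 in members, and 0.598 and 0.271 over all such barcodes. The intercalated cell list had a higher median in KO (1.42 against 0.257) while its defining members Foxi1, Slc4a1 and Slc26a4 were at 0 there. Its KO signal lay in Atp6v0d2, which is also a TFEB target. Early nephron markers had a median of 7.17 in WT and 4.07 in KO, with 32 WT and 7 KO members at 10 or more. They were thus not low in members, beside medians of 6.03 and 5.46 over all barcodes that passed the cell limits.

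Umod and Slc12a1 chose the cells, so their levels are given as a description. Among members Umod ranged from 3.30 to 42.6 UMIs per 10,000 in WT with a median of 11, and from 3.11 to 128 in KO with a median of 35.2. At least 20 per 10,000 was reached by 15 WT members (15.6%) and 116 KO members (69.5%). Slc12a1 ranged from 5.0 to 136 in WT with a median of 63.9 and from 5.42 to 101 in KO with a median of 42.4. KO members thus held more Umod and less Slc12a1, with overlapping ranges for both.

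**Figure D1:**
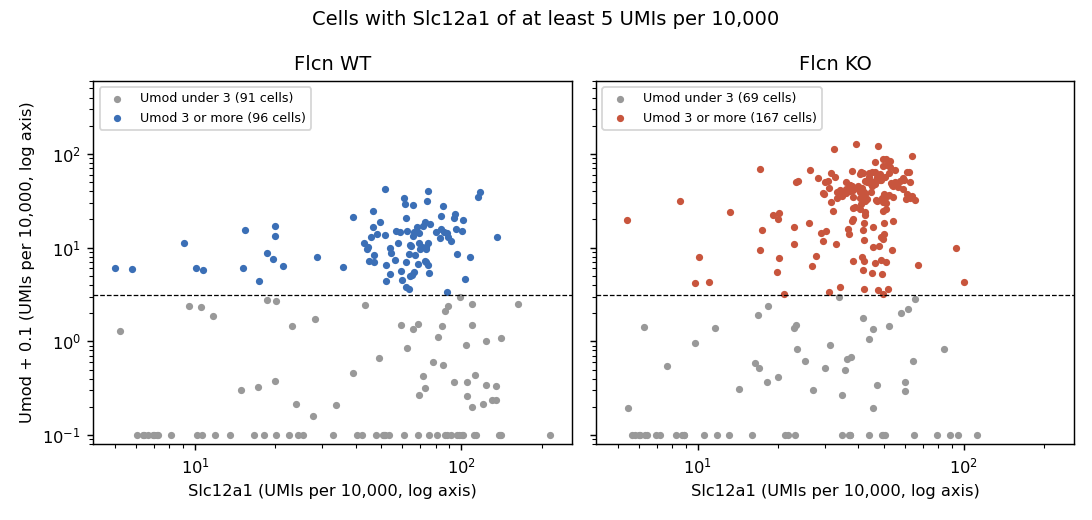
Umod against Slc12a1 in every barcode with Slc12a1 of at least 5 UMIs per 10,000, 1 panel per library, both axes logarithmic and 0.1 added to Umod. Coloured points are the 96 WT and 167 KO members, grey points the 91 and 69 Slc12a1 cells with less Umod, and the dashed line is the Umod threshold of 3; KO members spread to higher Umod at somewhat lower Slc12a1.

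Of all Slc12a1 cells, 51.3% of 187 in WT (exact Clopper-Pearson interval 43.9 to 58.7%) and 70.8% of 236 in KO (64.5 to 76.5%) passed the Umod threshold. Umod in the 3 members nearest the threshold was 3.30, 3.53 and 3.66 per 10,000 in WT and 3.11, 3.13 and 3.24 in KO. The nearest cells outside it had 2.57, 2.68 and 2.89 in WT and 2.30, 2.71 and 2.86 in KO. Few cells sat at the border, but 2 WT and 3 KO members had passed on fewer than 5 Umod UMIs. A Umod UMI was also seen in 5.67% of WT and 17.9% of KO endothelial cells, the level of free RNA. Members were 2.29% of WT barcodes (1.86 to 2.79%) and 3.31% of KO barcodes (2.84 to 3.85%), shares that move with the level of Umod because the rule uses it.

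The genes were compared by summing UMIs over the members of each library and dividing the KO by the WT level, each scaled to the nuclear-encoded UMIs of the library's members (CPM). Most lysosomal and TFEB-linked genes and vacuolar proton pump subunits were higher in KO members, and all DNA replication genes measured were lower. Loop transcription factors and cyst and cilium genes had medians under that of all genes with members on both sides, and thick ascending limb transport genes were about evenly divided. Of 14229 genes with at least 20 UMIs over both libraries, 2064 (14.5%) were at least 1.5-fold higher in KO members and 2406 (16.9%) at least 1.5-fold lower. These percentages are the background for each count of genes past 1.5-fold below. Of the same genes 47.9% were higher in KO members by any amount, the background for counts of genes that were higher. The median log2 ratio over all genes was -0.03.

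The folliculin complex and its transcription factors came first. Flcn itself had 39 UMIs in WT and 92 in KO members, a ratio of 1.42 (0.966 to 2.12), so the counts are few and the interval includes 1. Because counting is at the 3′ end and no label says which exons are floxed, this ratio does not check the deletion. The partner Fnip2 had 413 WT and 3306 KO UMIs, a ratio of 4.81 (4.35 to 5.35), and the ratio of Fnip1 was 1.56 (1.41 to 1.73). Single members carried Fnip2 at a median of 0.519 UMIs per 10,000 in WT and 2.97 in KO, with ranges of 0 to 4.06 and 0 to 6.52. Tfeb stood at 0.988 (0.859 to 1.14) and Tfe3 at 1.24 (0.966 to 1.6), intervals that include 1, and the related Mitf at 0.789 (0.734 to 0.847). Tfec had 1 and 5 UMIs (ratio 3.01, 0.337 to 142), too few to place. With each cell thinned to 5000 UMIs, Tfe3 was at 2.86.

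Among TFEB and TFE3 targets of the folliculin pathway all 19 measured genes of 20 were higher in KO members, 15 of them by 1.5-fold or more, with a median log2 ratio of 1.06 beside -0.03 for all genes. Gpnmb, a glycoprotein of lysosomes and melanosomes (chromosome 6, 49036546 to 49070929, GRCm38), had 6 UMIs in WT and 560 in KO members, a ratio of 56.1 (25.6 to 154). A Gpnmb UMI was found in 4.17% of WT and 52.1% of KO members (thinned 1.08% and 14.7%), against 2.09% and 1.87% of endothelial cells (thinned 0.312% and 0.396%). The WT share therefore lay near the background of free RNA and the KO share well above it. Rragd, the RagD GTPase that folliculin acts on, was 3.67-fold higher (425 and 2594 UMIs, 3.31 to 4.08). Its median over single cells was 0.650 per 10,000 in WT, with a highest cell of 2.36, and 2.49 in KO, where 90 of 163 cells exceeded every WT cell. Uap1l1, related to enzymes of amino sugar metabolism, stood at 6.23 (5.05 to 7.76), Amdhd2, an N-acetylglucosamine-phosphate deacetylase, at 4.49, Sqstm1, the autophagy receptor p62, at 2.66 and Mcoln1, the lysosomal calcium channel mucolipin-1, at 2.40.

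Of 45 measured genes for lysosomal hydrolases and membrane proteins, 41 were higher in KO members, 31 at least 1.5-fold, and 1 was at least 1.5-fold lower. The median log2 ratio was 0.80. Hexa, the alpha subunit of beta-hexosaminidase (ENSMUSG00000025232, chromosome 9, 59539540 to 59565109, GRCm38), had 112 WT and 1962 KO UMIs, a ratio of 10.5 (8.71 to 12.9). A Hexa UMI was found in 55 of 93 WT members with at least 5000 UMIs, at a median of 0.135 per 10,000 and a highest cell of 1.0, and in 162 of 163 KO members, at a median of 1.76 and a highest of 4.01. Of the KO cells 139 lay above every WT cell.

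Dpp7, a lysosomal dipeptidase, had 20 and 375 UMIs (ratio 11.3, 7.20 to 18.7), and Arsa, arylsulfatase A, 41 and 345 (5.06, 3.65 to 7.18). Lamp1, a major membrane protein of lysosomes, ran from 0.430 to 5.53 per 10,000 over WT members with a median of 2.48, and from 2.0 to 14.0 over KO members with a median of 5.89. Of 163 KO cells 161 exceeded the WT median and 93 the highest WT cell, and the summed ratio was 2.43 (2.30 to 2.57). Progranulin (Grn) at 2.67, the sialidase Neu1 at 2.43 and cathepsin D (Ctsd) at 1.74 had smaller ratios. Cathepsin H (Ctsh) was the gene that went the other way, at 0.546 (0.438 to 0.681).

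The vacuolar ATPase acidifies lysosomes, and in intercalated cells a set of special isoforms places it at the cell surface. In members 18 of 21 subunit genes were higher in KO, 11 by 1.5-fold or more, and 3 were at least 1.5-fold lower, with a median log2 ratio of 0.68. Atp6v0d2 had 95 WT and 1476 KO UMIs (ratio 9.34, 7.59 to 11.6), Atp6v1b2 543 and 3226 (3.57, 3.26 to 3.92) and Atp6v0d1 was at 2.33. The 3 lower subunits were isoforms known from intercalated cells, Atp6v1b1 at 0.329 (181 and 99 UMIs), Atp6v1c2 at 0.105 (40 and 7 UMIs) and Atp6v1g3 at 0.0160 (75 and 2 UMIs, 0.00191 to 0.0600). Atp6v0d2, higher in KO members, is on the same intercalated cell marker list as Atp6v1b1 and Atp6v1g3, so these isoforms went both ways. Intercalated cell markers reached 23.4 per 10,000 in 1 WT member and at most 6.21 in KO. Their part in these ratios was not tested.

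E-boxes in promoters were looked up because genes of these lists were higher together. Windows from 250 bases before to 50 after each annotated gene start came from RefSeq on GRCm38.p6, and both motifs searched, CACGTG and the longer TCACGTGA that contains it, read the same on both strands. CACGTG was present in 8.09% of the 27025 genes of the table and in 11.7% of the 10421 genes measured in members that matched it. The share was 39.5% for the lysosomal list (15 of 38 matched genes), 37.5% for TFEB and TFE3 targets (6 of 16) and 26.7% for the vacuolar ATPase (4 of 15). It was as high or higher in some lists that were not higher in KO, at 45.5% for epithelial junction and polarity genes (5 of 11, median log2 ratio 0.06) and 30% for macula densa genes (3 of 10, median -0.33). It was 6.67% for thick ascending limb transport genes (2 of 30), 5.88% for DNA replication genes (1 of 17) and 3.70% for respiratory chain genes (1 of 27). TCACGTGA was present in 2.26% of measured genes and 15.8% of the lysosomal list (6 of 38). Among the 15 genes with the highest ratios 3 of 11 matched promoters had CACGTG, and among the 15 with the lowest 0 of 9. A match describes the letters of the window, not binding. TFEB and TFE3 bind E-boxes, so lists of genes they are known to raise can hold many E-boxes whatever the ratios here. The shares describe the lists and are not a test. The stretches around the E-boxes of 6 genes that were higher in KO members are shown 5′ to 3′ on the gene's strand, with CACGTG in capitals, to let the surrounding bases be compared. They lie at chr6:145865538-145865603 (Bhlhe41, minus strand), chr17:68273547-68273584 (L3mbtl4, plus), chr2:25356370-25356435 (Dpp7, minus), chr9:73063898-73063937 (Rab27a, plus), chr15:89477405-89477470 (Arsa, minus) and chr17:24163765-24163830 (Amdhd2, minus).
Bhlhe41: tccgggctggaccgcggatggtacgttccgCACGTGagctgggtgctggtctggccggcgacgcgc
L3mbtl4: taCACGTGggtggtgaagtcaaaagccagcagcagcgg
Dpp7: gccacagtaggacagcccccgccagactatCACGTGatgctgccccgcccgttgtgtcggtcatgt
Rab27a: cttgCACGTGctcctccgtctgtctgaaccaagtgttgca
Arsa: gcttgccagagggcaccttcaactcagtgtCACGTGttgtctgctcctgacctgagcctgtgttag
Amdhd2: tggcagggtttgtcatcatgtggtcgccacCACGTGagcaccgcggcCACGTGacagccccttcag
The Dpp7 window holds the longer TCACGTGA, and the Amdhd2 window holds CACGTG more than once. The E-box lies 16 bases before the start in Arsa and 73 in Dpp7, but 246 in Rab27a and 248 in L3mbtl4, near the edge of the window.

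Counted in single cells, the lists separated most KO from most WT members. After thinning to 5000 UMIs, lysosomal genes took from 8 to 82 UMIs per 10,000 in 93 WT members, with a median of 36, and from 32 to 110 in 163 KO members, with a median of 62 (unthinned medians 34.9 and 62.1). Of the KO members 158 lay above the WT median, and 1 WT member lay above the KO median. TFEB and TFE3 targets ran from 4 to 32 in WT with a median of 14 and from 4 to 58 in KO with a median of 30 (unthinned 15 and 31.4). For the vacuolar ATPase the medians were 30 and 52 (unthinned 31.7 and 53.7). Most KO members thus lay above most WT members, although the ranges overlapped.

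**Figure D2:**
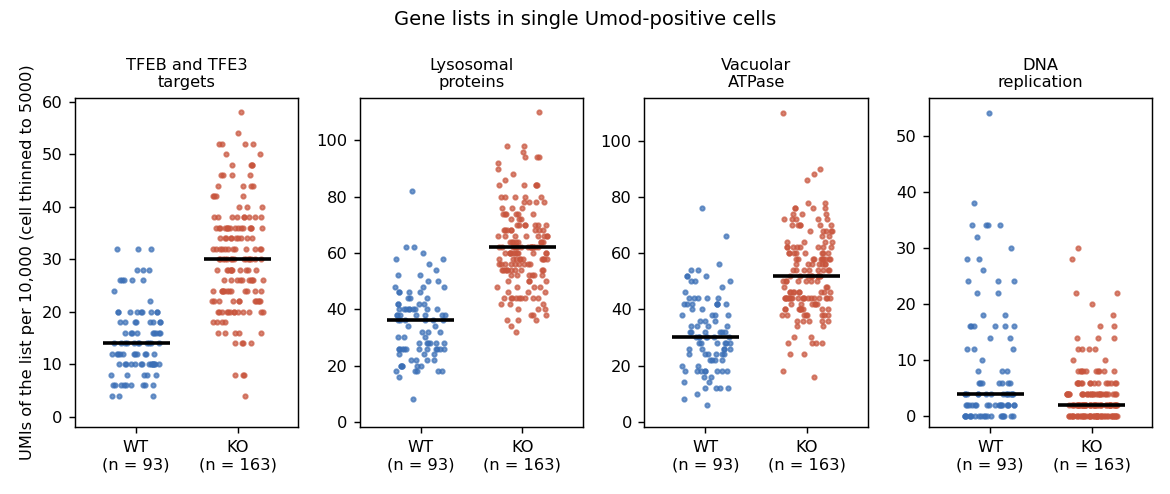
UMIs per 10,000 from 4 gene lists in single members thinned to 5000 UMIs, 1 point per cell (93 WT, 163 KO), with a bar at the median. The medians are 14 and 30 for TFEB and TFE3 targets, 36 and 62 for lysosomal genes, 30 and 52 for the vacuolar ATPase and 4 and 2 for DNA replication, where 7 WT cells lie above every KO cell.

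The lists are also given by Umod level, as a description, because Umod is a gene of the rule. Members were split at the median Umod of their own library. The lysosomal list had medians of 34 and 36 per 10,000 in the WT members with less and more Umod, and of 61 and 62 in the KO members. TFEB and TFE3 targets had 14 and 13 in WT and 28 and 32 in KO. Thick ascending limb genes were at 242 and 275 in WT and 250 and 294 in KO, and respiratory chain genes at 302 and 335 in WT and 343 and 406 in KO, so these lists were higher in the members with more Umod. Between Umod of 5 and 20 per 10,000 there were 72 WT and 41 KO members, with median Umod of 10.2 and 10.8 and median depths of 43594.5 and 43841 UMIs. In these cells the median log2 ratio was 1.06 for TFEB and TFE3 targets (19 of 19 higher), 0.84 for the lysosomal list (40 of 44 higher) and 0.71 for the vacuolar ATPase (18 of 21 higher). Hexa was at 10.9 (8.51 to 14.2) there, Rragd at 3.73 and Fnip2 at 4.11. Gpnmb was at 24.1 (5 and 59 UMIs, 9.76 to 76.9) and Atp6v0d2 at 5.09 (3.98 to 6.57), nearer to 1 than in all members. Slc12a1 remained lower in KO at matched Umod (0.677), a description of a gene of the rule.

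**Figure D3:**
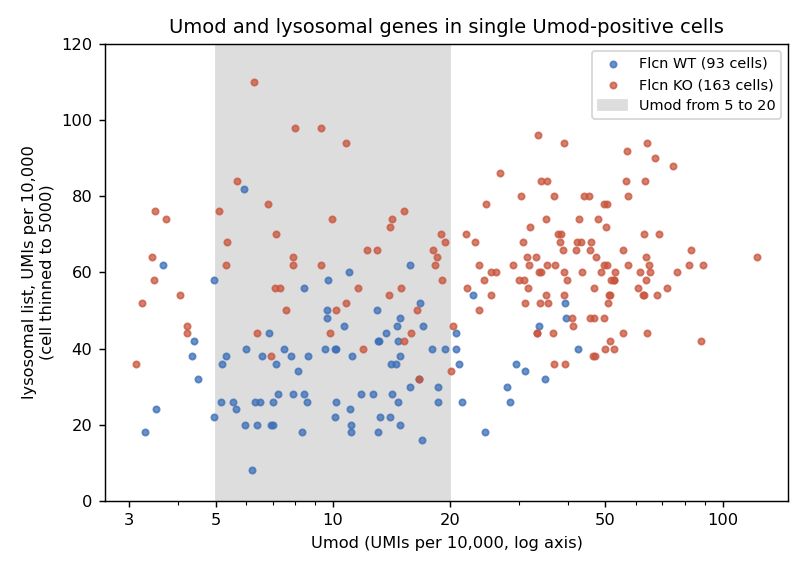
Lysosomal list against Umod in single members, in UMIs per 10,000 with Umod on a log axis, and the list counted after thinning to 5000 UMIs. The 93 WT points mostly lie below the 163 KO points at the same Umod, also within the grey band from 5 to 20, which held 72 WT and 41 KO members before thinning.

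The genes that define salt transport did not move as a group. Of 36 measured thick ascending limb genes (without Slc12a1 and Umod) 18 were higher in KO members, 10 by 1.5-fold or more, and 9 were at least 1.5-fold lower, with a median log2 ratio of 0.01. Kcnj1 (ROMK) was at 0.930 (0.881 to 0.982), at 3.78 per 10,000 in the median WT cell and 3.24 in the median KO cell. Barttin (Bsnd), needed for chloride exit, was at 0.566 (0.479 to 0.670). Fxyd2, a small membrane protein that modulates ion transport, was at 1.49 (1.47 to 1.51), and the apical sodium-proton exchanger Slc9a3 at 0.658 (0.606 to 0.714). These transport genes therefore lay on both sides of 1.

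Several genes of the list differed more than 3-fold. Ptger3, the prostaglandin E2 receptor EP3 (ENSMUSG00000040016, chromosome 3, 157566892 to 157645888, GRCm38), had 1897 WT and 9709 KO UMIs, a ratio of 3.08 (2.93 to 3.24). Over single members it ran from 0 to 9.32 per 10,000 in WT with a median of 3.22, and from 0 to 25.1 in KO with a median of 9.39. Of 163 KO members 152 lay above the WT median and 83 above every WT member. Ckb, the brain-type creatine kinase, was 4.27-fold higher (1006 and 7145 UMIs, 4.0 to 4.57), at cell medians of 1.02 and 5.61. The membrane protein gene Tmem52b was 6.97-fold higher (114 and 1321 UMIs, 5.75 to 8.52), and Kcnt1, a sodium-activated potassium channel, had 2 and 98 UMIs (29.5, 7.94 to 247). Hepsin (Hpn), the protease that releases uromodulin from the cell, was at 1.90 (1.68 to 2.17), and the kinases Wnk4 and Oxsr1, which activate NKCC2, at 1.55 and 1.63. The calcium-sensing receptor Casr stood at 1.35 (1.20 to 1.52). On the other side were the vasopressin receptor Avpr2 (40 and 11 UMIs, 0.165, 0.0765 to 0.328), the kinase scaffold Cab39l (0.416) and the phosphatase inhibitor Ppp1r1a (0.597).

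The list holds 5 claudins, 3 of them lower and 2 higher in KO members. Cldn16 and Cldn19, which form the calcium and magnesium pore, were both lower in KO members, Cldn16 at 0.555 (441 and 407 UMIs, 0.484 to 0.637) and Cldn19 at 0.598 (1995 and 1985 UMIs, 0.562 to 0.637). Cldn19 ran from 0.455 to 7.01 per 10,000 over WT members with a median of 3.29, and from 0 to 6.58 over KO members with a median of 1.96, and 7 of 163 KO members lay above the WT median. Cldn14, which closes that pore, was 3.43-fold higher (50 and 285 UMIs, 2.53 to 4.73). Cldn3, a sealing claudin, was 2.33-fold higher (2.07 to 2.64), and Cldn10, the sodium pore, was at 0.790 (0.769 to 0.811). In the band of matched Umod the ratios were 0.711 for Cldn16, 0.519 for Cldn19 and 3.62 for Cldn14, in the same directions.

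**Figure D4:**
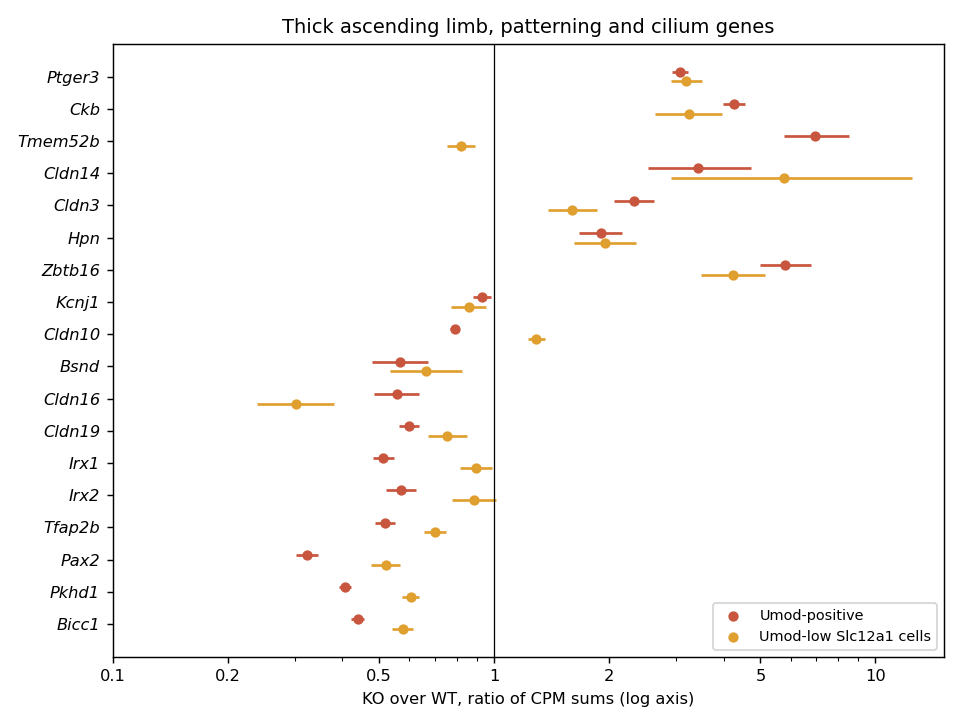
KO over WT ratio of summed CPM on a log axis for 18 named genes, in members (red) and in Slc12a1 cells under the Umod threshold (orange), with 95% intervals for counting error. Ptger3, Ckb, Cldn14, Cldn3, Hpn and Zbtb16 lie above 1 in both, Tmem52b above 1 in members and below 1 in the Umod-low cells, and Cldn16, Cldn19, Bsnd, Pax2, Pkhd1 and Bicc1 below 1 in both.

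Transcription factors that pattern the loop of Henle were mostly lower. Of 28 measured factors of 30, 6 were higher in KO members, of which 5 by 1.5-fold or more, and 11 were at least 1.5-fold lower, with a median log2 ratio of -0.40. Pax2, a factor of the developing nephron, had 2476 WT and 1334 KO UMIs (0.324, 0.303 to 0.346), at cell medians of 2.0 and 0.858 per 10,000, and 22 of 163 KO members lay above the WT median. Irx1 and Irx2, Iroquois factors of the intermediate nephron segment, were at 0.513 and 0.571, and Sim1, Tfap2b and Mecom, factors of distal and loop epithelium, at 0.510, 0.518 and 0.513. Foxq1 (0.179) and Sall3 (0.232) were the lowest of the list. Pax8, of the early nephron, was at 0.895 and Esrrg, which drives oxidative metabolism, at 0.930.

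A few factors were higher. Nkx6-2, a homeobox gene known from the nervous system, had 1 WT and 623 KO UMIs (ratio 375, 67.0 to 14824). Its UMIs were found in 1.04% of WT and 48.5% of KO members (thinned 0 of 93, which allows up to 3.23%, and 16.6%), against 0.299% and 0.748% of endothelial cells. Its level in single KO members ran from 0 to 7.90 per 10,000. Bhlhe41, a circadian repressor, had 9 and 340 UMIs (22.7, 11.8 to 50.1) and Zbtb16, the zinc finger factor PLZF, 180 and 1737 (5.80, 4.98 to 6.81). Ppargc1a, the coactivator of mitochondrial biogenesis, was at 1.57 (1.52 to 1.63). Nuclear-encoded respiratory chain genes were higher in 36 of 36 cases, but by little, with a median log2 ratio of 0.32 and 1 gene, Cox5a at 1.52, past 1.5-fold. This was not limited to members. In Slc12a1 cells under the Umod threshold 36 of 36 were higher (median 0.37) and in distal convoluted tubule cells 33 (0.20). In collecting duct 29 of 36 were higher (0.14), in stroma 27 (0.05) and in endothelium 3 (-0.12).

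Genes whose loss causes cystic kidneys, and genes of the primary cilium, leaned lower. Of 24 measured 6 were higher in KO members, 1 by 1.5-fold or more, and 7 were lower by 1.5-fold or more, with a median log2 ratio of -0.30. Pkhd1, which encodes the fibrocystin of recessive polycystic kidney disease, had 7342 and 4962 UMIs (0.406, 0.392 to 0.421). Its cell median was 10.5 per 10,000 in WT (0 to 29.6) and 3.90 in KO (0.471 to 22.5), and 8 of 163 KO members exceeded the WT median. Bicc1, an RNA-binding protein, was at 0.439 (0.422 to 0.456), with 4 KO members above the WT median, and Glis3, a zinc finger factor, at 0.340 (0.319 to 0.361). Dzip1l at 0.303 and Nphp4 at 0.261 (30 and 13 UMIs, 0.125 to 0.515) belong to the cilium. The genes of dominant polycystic disease were closer to 1, Pkd1 at 0.676 (89 and 100 UMIs, 0.503 to 0.910) and Pkd2 at 0.903 (0.820 to 0.994), and Tsc1, of tuberous sclerosis, was higher at 1.80 (1.58 to 2.06). At matched Umod the list had a median of -0.29, Pkhd1 was at 0.428 and Bicc1 at 0.505.

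Cell cycle genes were lower in KO members. None of 22 DNA replication genes was higher and 21 were at least 1.5-fold lower, with a median log2 ratio of -1.45, among them Mcm3 of the replicative helicase at 0.233 (361 and 140 UMIs, 0.191 to 0.284), the chromatin remodeller Hells at 0.226 and the polymerase Pole at 0.196. Of 24 mitosis genes 18 were at least 1.5-fold lower (median -0.73), with Top2a at 0.378 and Mki67 at 0.508, and Ccnb2 the 1 gene above 1, at 1.06 (0.892 to 1.25). After thinning, at least 2 mitosis UMIs were found in 41 of 93 WT members (44.1%, 33.8 to 54.8%) and 49 of 163 KO members (30.1%, 23.1 to 37.7%), shares whose intervals overlap. Unthinned shares were 86.5% and 85.6%. Thinned endothelium had 43.6% and 44.8%. The cell cycle inhibitor Cdkn1a (p21) was 2.27-fold higher (2.04 to 2.53), while Cdkn2c was at 0.379 (46 and 29 UMIs). Without cells that carried a mitosis UMI after thinning, the replication median was -0.36.

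Over all genes, the 15 highest ratios ranked by the interval bound nearest to 1 were those of Nkx6-2, Gpnmb, Angptl2, Bhlhe41, Padi1, Fabp4, Scd1, L3mbtl4, Antxr1, Hexa, Tmem252, Slc26a10, Rab27a, Atp6v0d2 and Gsta2. Rab27a, a GTPase of lysosome-related organelles, had 140 and 2104 UMIs (9.04, 7.61 to 10.8), at cell medians of 0.145 and 2.01 per 10,000. Angptl2, a secreted glycoprotein, had 14 and 519 (22.3, 13.2 to 41.1). It was seen in 11.5% of WT and 71.9% of KO members (thinned 0 of 93, which allows up to 3.23%, and 22.7%), while stroma, which expresses it, had 32.7% and 32.4%. The desaturase Scd1 was at 17.6 (9.15 to 39.0) and the anthrax toxin receptor gene Antxr1 at 14.2 (8.73 to 24.5). The 3 richest KO cells held between 5.86% (Hexa) and 19.8% (Gpnmb) of the KO UMIs for 13 of the 15 genes, 49.0% for Gsta2 and 91.6% for Fabp4. For genes with few WT UMIs the ratio without the 3 richest cells of each library was larger, at 34.1 for Angptl2, 35.8 for Bhlhe41, 53.7 for Padi1, 22.7 for L3mbtl4, 22.7 for Antxr1 and 263 (47.0 to 10415) for Gpnmb. For each of these genes this step removed a larger share of WT than of KO UMIs, which by itself raises the ratio. The step left 1 WT UMI of Gpnmb, 2 of Padi1, 5 of Bhlhe41, 8 of Angptl2, 9 of Antxr1 and 10 of L3mbtl4. Other settings lowered the ratio. In all Slc12a1 cells it was 10.5 for Angptl2, 4.61 for Antxr1, 7.77 for Scd1, 3.63 for Tmem252 and 3.18 for Gsta2. Above the pooled Umod median it was 10.5 for Bhlhe41 and 2.96 for Gsta2, and at or below it 5.61 for L3mbtl4. For Atp6v0d2 3 WT cells held 47.4% of the WT UMIs, and without the 3 richest cells of each library its ratio was 16.6. Over all settings the ratio of Atp6v0d2 ran from 4.90 to 53.7. Fabp4 is a fatty acid binding protein abundant in capillary endothelium. Of its 427 KO UMIs 344 came from 1 cell, and without the 3 richest cells of each library its ratio was 1.99 (0.991 to 4.34).

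The 15 lowest were Sgcz, Wnt11, Cacnb2, Nccrp1, Grm8, Slc4a11, Slc35f1, Ranbp3l, Scel, Sfrp1, Plxna4, Slc1a3, Scube3, Chst9 and Anpep. Sgcz, a sarcoglycan gene, had 6209 WT and 291 KO UMIs (0.0282, 0.0250 to 0.0317), and was found in 72 of 93 WT members at a median of 5.83 per 10,000 and in 32 of 163 KO members. In KO 65.6% of its UMIs came from 3 cells, and without the 3 richest cells the ratio was 0.0121. The sulfotransferase Chst9 had 1985 and 461 UMIs (0.140, 0.126 to 0.155), at cell medians of 2.50 and 0.174, and aminopeptidase N (Anpep) 879 and 199 (0.136, 0.116 to 0.159). The glutamate transporter Slc1a3 was found in 74 of 93 WT and 47 of 163 KO members, and no KO member exceeded 0.729 per 10,000 against a WT maximum of 5.13. Sfrp1, a secreted Wnt antagonist, was at 0.101 (0.0886 to 0.114), without the 3 richest cells at 0.0563, and at matched Umod at 0.288. Ranbp3l was at 0.0960, and at 0.0834 in collecting duct and 0.115 in stroma, which do not descend from cells with Six2Cre. Of its 214 KO UMIs 87.9% came from 3 cells, and without the richest cells its ratio was 0.0164. The same step gave 0.0170 for Cacnb2, 0.0204 for Grm8, 0.0511 for Scube3 and 0.0751 for Nccrp1.

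Members were then set beside the 91 WT and 69 KO Slc12a1 cells under the Umod threshold. These Umod-low cells held transcripts of the macula densa, the sensor cells at the end of the limb. Among genes higher in members in both libraries, Ckb led with 5.67-fold in WT and 7.48-fold in KO, followed by the urokinase gene Plau (7.64 and 5.29), the ligand Wnt7b (5.15 and 5.34), lipoprotein lipase Lpl (4.39 and 8.51) and the orphan nuclear receptor Esrrb (3.13 and 3.01). Among the genes lower in members were Bmper, a BMP-binding protein (0.00684 and 0.0233), the macula densa protease Pappa2 (0.0537 and 0.0225), the progenitor factor Sox9 (0.0584 and 0.0293) and the BMP receptor Bmpr1b (0.0967 and 0.104). Nos1, the nitric oxide synthase of the macula densa, had 7 UMIs in WT and 4 in KO members. These genes were ranked by the library with the smaller difference, so their like direction in both libraries comes from the choice, and the contrasts are descriptions because the split by Umod made the groups.

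The KO over WT medians of the TFEB, lysosomal and vacuolar ATPase lists were positive in both groups of Slc12a1 cells. In Umod-low cells they were 0.94, 0.62 and 0.49, beside 1.06, 0.80 and 0.68 in members. They were 0.04, -0.08 and -0.14 in endothelium, -0.03, -0.08 and -0.04 in stroma, and 0.09, 0.31 and 0.17 in Aqp2-positive collecting duct cells. Slc12a3-positive distal convoluted tubule cells, another segment that descends from Six2Cre progenitors, were few (40 WT and 8 KO). Their medians were 0.87, 0.69 and 0.10, beside 0.06 for all genes in those cells. Higher medians of the TFEB and lysosomal lists were thus not limited to Slc12a1 cells. That of the vacuolar ATPase was near the median of all genes there. The cell cycle lists differed in another way, with DNA replication at 0.00 and mitosis at 0.45 in Umod-low cells, and mitosis at 0.81 in stroma. Loop transcription factors had a median of -0.42 in Umod-low cells and also -1.54 in endothelium, where their summed WT level was 1172 CPM against 12767 CPM in members. Thick ascending limb genes were at -0.17 in Umod-low cells. No difference between these cell groups was tested.

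**Figure D5:**
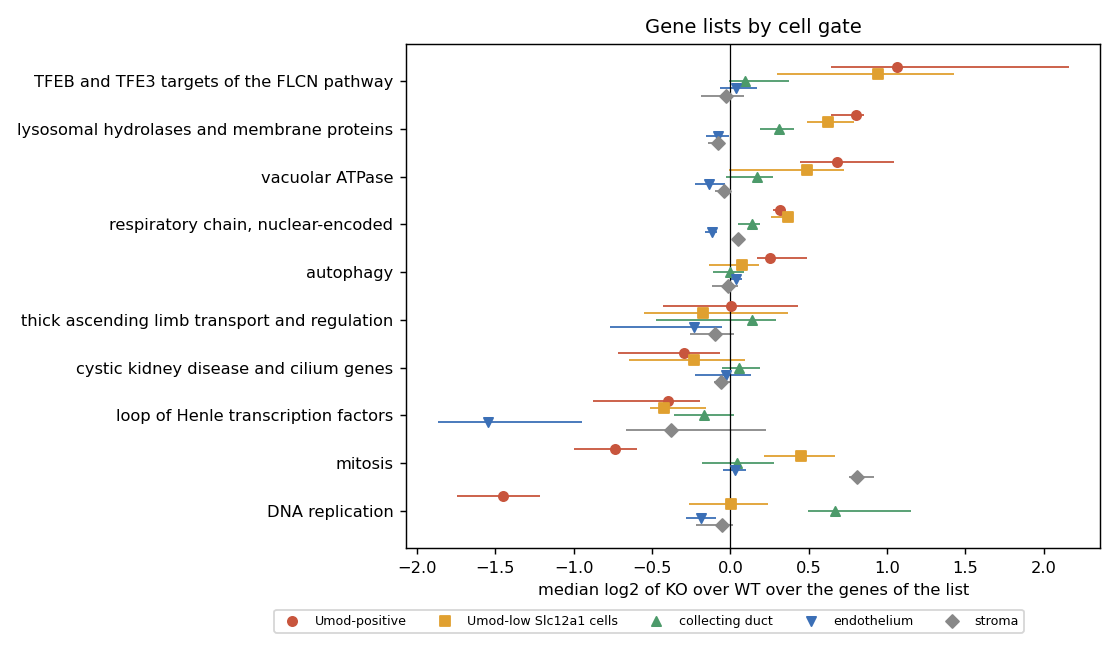
Median log2 ratio of KO over WT over the genes of 10 lists, in members and 4 other groups of cells, with the 95% interval of the median from the ranks of the list's genes, which are not independent replicates. TFEB, lysosomal and vacuolar ATPase lists are positive in both groups of Slc12a1 cells and near 0 in endothelium and stroma, and DNA replication is at -1.45 in members and 0.00 in Umod-low cells.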

How the data were processed

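The deposited values are raw UMI counts per gene and barcode, 1 matrix per library, made with 3′ chemistry of 10x Genomics per the labels, and with bcl2fastq 2.20.0, STAR 2.7.2a and Cell Ranger on GRCm38 per the submitters' processing notes (Cell Ranger 7.0.0 for WT and 7.1.0 for KO per the file headers). The gene annotation and whether introns counted were not given in the sources used here. The libraries held 147390790 and 149679281 UMIs in 5572 and 5991 barcodes, and 0 sample columns were left unused. Of 55488 gene rows, those of 114 repeated symbols were summed.

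The members and gene lists were chosen with earlier results of these data known. For each group of cells the UMIs were added up, scaled to CPM of nuclear-encoded UMIs, and compared with exact conditional intervals. Before taking log2, 0.5 UMI was added on both sides. List medians used genes with at least 20 UMIs. Comparison cells had Slc12a1 under 5 per 10,000 and either Slc12a3 or Aqp2 of at least 3, 5 endothelial genes together of at least 10, or stromal genes of at least 30. The 2 libraries were 1 per group, so no test was possible.

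Genes named are members of the lists, the 15 highest and lowest ratios (at least 50 UMIs, 20 CPM in 1 library, no ribosomal, haemoglobin, mitochondrial, Xist, Y-linked or unnamed genes), the 10 highest and lowest of members over Umod-low cells, the 6 highest and lowest differences of the ratio between those groups, and the folliculin genes. Scrublet (scanpy 1.11.5) called 3 WT and 2 KO doublets, 0.0717% and 0.0397% of barcodes, too few to be usable, so none were removed. An alternative left out the barcodes with the highest scores, at expected shares of 4.46% in WT and 4.79% in KO. That step took out 2 of 96 WT and 17 of 167 KO members. Alternatives changed the cell limits, doublets, Umod threshold, cycling cells, scaling (TMM of edgeR 4.0.16, median of ratios of DESeq2 1.42.0), weighting of cells and UMI minimum. All Slc12a1 cells, Umod of 5 to 20, and leaving out the 3 richest cells per gene were chosen after seeing the data. Either scaling shifted log2 ratios by 0.02. The calculations were tested on simulated data. Python 3.11.15, numpy 2.4.6, scipy 1.17.1 and pandas 2.3.3 were used. Some members of the lists are not reported here by name.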

Additional observations from a re-analysis of the deposited data

Results flagged for a closer look

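Only genes named for the highest or lowest KO over WT ratios, or for their highest or lowest differences between groups, were searched. For 8 of these genes the ratio differed widely between members and Umod-low Slc12a1 cells. It lay on opposite sides of 1, with both intervals excluding 1. They are therefore not a count over all genes. The difference itself was not tested. Given as the log2 ratio in members minus that in Umod-low cells, it was 7.49 for Nlgn1, 6.46 for Spp2, 6.45 for Fabp4, 6.38 for Cldn5, 6.07 for Thsd7a and 5.40 for Gsta2. Most of these rest on very few cells. The 3 richest KO members held 92.5% of Nlgn1, 96.9% of Spp2, 91.6% of Fabp4, 89.5% of Cldn5 and 95% of Thsd7a UMIs, and 49.0% of Gsta2. Without the 3 richest cells of each library the ratio in members was 0.789 for Spp2 and 0.255 for Thsd7a. Fabp4 and Cldn5 are known from endothelium, whose marker list reached 23.2 UMIs per 10,000 in 1 KO member. Its part in these values was not tested.

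For 2 genes the difference was negative. Kif14, a mitotic kinesin, was at -3.35 (0.365 in members and 3.81 in Umod-low cells) and Tmem108, a membrane protein, at -3.02 (0.387 and 3.17). No 3 members held more than 41.1% of the UMIs of either gene in a library. How UMIs of the flagged genes spread over the Umod-low cells was not examined. Those cells held 15 WT and 36 KO UMIs of Kif14, and 27 and 54 of Tmem108.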

How the results depend on the processing

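No paired analysis was possible because each group has 1 library, and for the same reason no library could be left out. Each value under an alternative was compared with a range around the main value. For shares and single genes this was the counting interval, for lists the rank interval of the median, and for gene counts 1.5-fold. Such a range can be wide, at 67.0 to 14824 for Nkx6-2. Of 188 values of the main results 149 lay within it. Of 590 values of the genes with the 15 highest and lowest ratios, the folliculin genes, Kcnj1 and Cldn16, 436 did. None of these genes past 1.5-fold changed direction (Spp2 and Thsd7a, outside them, did without the 3 richest cells, at 0.789 and 0.255), while Tfeb (0.749 to 1.23) and Kcnj1 (0.761 to 1.05), near 1, lay on both sides of it. The medians kept to 0.82 to 1.21 for TFEB and TFE3 targets, 0.66 to 0.84 for lysosomal genes, 0.48 to 0.74 for the vacuolar ATPase and -0.62 to -0.28 for loop transcription factors, and that of thick ascending limb genes ran from -0.41 to 0.09.

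Shares of members in WT and KO were 1.29% and 2.74% with Umod of at least 10 per 10,000, 0.740% and 1.45% without cells with a mitosis UMI, 4.47% and 4.68% for all Slc12a1 cells, and 1.72% and 0.813% for Umod of 5 to 20. With at most 10% mitochondrial UMIs the KO share was 2.72%. Genes past 1.5-fold numbered 2064 higher and 2406 lower of 14229 in the main setting. They numbered 1246 and 1303 of 10572 genes with at least 100 UMIs, and 6573 and 7051 of 25003 with at least 1. The lower count was 1567 of 11217 without cells with a mitosis UMI and 1089 of 7874 with thinned cells, settings that leave fewer genes with enough UMIs.

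The respiratory chain median was 0.39 at 10% mitochondrial UMIs, 0.36 without the highest doublet scores, 0.18 with Umod of at least 10, 0.20 without mitosis UMIs, 0.13 both above and at or below the pooled Umod median, 0.45 in all Slc12a1 cells, 0.24 at Umod of 5 to 20, 0.14 as a mean over cells and 0.21 thinned. DNA replication was at -0.36 without mitosis UMIs, -1.99 above and -1.02 at or below the Umod median, -1.01 in all Slc12a1 cells, -1.0 at Umod of 5 to 20 and -1.17 thinned. Mitosis was at -0.56 at 10% mitochondrial UMIs, -1.0 with Umod of at least 10, -0.54 above the Umod median, -0.39 in all Slc12a1 cells, -0.49 at Umod of 5 to 20, -1.12 as a mean over cells and -1.14 thinned. It turned to 0.17, over 6 genes, without cells with a mitosis UMI, a choice of cells made on the genes of the list itself. The cause of these changes was not tested.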

Other observations

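Further groups of genes in members are given as values. Of 21 genes of glycerolipids, cholesterol and lipid droplets 13 were higher in KO, 8 of them by 1.5-fold or more, and 1 was lower by as much (median log2 ratio 0.12). The lipid carrier Apoe had 4054 and 22320 UMIs (3.31, 3.20 to 3.42), at cell medians of 5.50 and 18.8 UMIs per 10,000, and 155 of 163 KO members lay above the WT median. The cholesterol exporter Abca1 was at 2.54 (2.06 to 3.15). Autophagy genes were higher in 27 of 29 cases (median 0.25), 6 of them at least 1.5-fold, with the receptor Optn at 3.14 and Gabarapl1 at 2.18. Of 22 genes for Rag GTPases, Ragulator and mTORC1, 16 were higher (median 0.30), with Rragc at 2.09 and Lamtor1 at 1.91.

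Endoplasmic reticulum chaperones and stress genes had a median of 0.03, with 13 of 23 higher, but Herpud1, of the degradation machinery of that compartment, had 494 and 4405 UMIs (5.36, 4.89 to 5.90). Its cell median was 0.733 per 10,000 in WT and 3.85 in KO, and 132 of 163 KO members lay above every WT member. Tubule injury genes went both ways, 7 of 17 at least 1.5-fold higher and 6 at least 1.5-fold lower, with Tnfrsf12a at 4.21 and Cd44 at 4.01 but Clu at 0.401 and Anxa2 at 0.418. Havcr1 had 0 WT and 11 KO UMIs. Macula densa genes were at least 1.5-fold lower in 4 of 9 cases (median -0.33), and thin limb genes in 7 of 10 (median -1.26). The rank interval of the thin limb median included 0 (-3.97 to 0.09), and the summed level was 1149 CPM in WT and 1058 in KO members. That median was -1.30 in Umod-low cells, -1.07 in stroma, -0.65 in endothelium and 0.04 in collecting duct.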
